A study of Mus musculus with 12 samples.

Results

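The 10 genes described here encode cadherins of the developing brain. They comprise the type I, or classical, cadherins Cdh2 and Cdh4, the type II cadherins Cdh6, Cdh7, Cdh8, Cdh10, Cdh11, Cdh12 and Cdh20, and the membrane-anchored cadherin Cdh13. They were taken by gene symbol from a list that was drawn up with earlier results of these data known, and make up 10 of the 46603 genes in the count tables. RNA was sequenced from microdissected neocortex of C57Bl/6J mice in 4 groups of 3 libraries each, namely Chd8+/+ and Chd8+/- embryos at embryonic day 12.5 (E12.5) and Chd8+/+ and Chd8+/- pups at postnatal day 5 (P5). Chd8 encodes a chromatin remodeler, and the Chd8+/- mice carry 1 null allele, made by deleting exon 3 in the germline with the ubiquitously expressed β-actinCre. All cells therefore carry the deletion throughout life. Both hemispheres were taken at E12.5 and 1 hemisphere at P5, and the stages were counted in separate tables, so age and these differences between the stages cannot be told apart. The sources used here do not say whether each library came from a separate animal, so p-values measure the spread between these libraries. The comparisons ask which cadherins differed between Chd8+/- and Chd8+/+ neocortex at each stage, and which differed between E12.5 and P5.

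Cadherins are calcium-dependent adhesion proteins that bind partners of the same or a related kind on a neighboring cell through their extracellular repeats. The cytoplasmic tails of type I and type II cadherins bind β-catenin and p120-catenin, and through α-catenin they couple the junction to actin. Type I cadherins mediate strong adhesion in neuroepithelia and at synapses, whereas type II cadherins are expressed in partly overlapping sets of areas, layers and neuron types and contribute to sorting and synaptic matching. Cdh13 lacks the transmembrane and cytoplasmic parts, is held in the membrane by a glycosylphosphatidylinositol (GPI) anchor and hence does not bind catenins directly.

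All coordinates are those of the deposited annotation (GRCm38). Type II genes are found near each other on 3 chromosomes, with Cdh20 and Cdh7 4.99 Mb apart on chromosome 1, Cdh6, Cdh10 and Cdh12 in that order on chromosome 15 with gaps of 5.65 and 2.097 Mb, and Cdh8 and Cdh11 3.22 Mb apart on chromosome 8, where Cdh13 follows after 15.5 Mb. The genes are long. Their genomic spans run from 139 kb for Cdh6 (chr15:13034200-13173639, minus strand) to 1041 kb for Cdh13 (chr8:118283733-119324921, plus strand), against a median of 18.9 kb for the genes tested at P5, and the member with the shortest span was longer than 91.6% of those genes. Merged exons cover 1.07% (Cdh13) to 6.36% (Cdh7) of the span. Cdh8 alone shared exon bases with another gene, 23 bases with the opposite-strand Gm15679.

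Promoter sequence was found in the RefSeq table (GRCm38.p6) for 6 of the 10 genes. The 250 bases before the start are shown for 3 type II genes whose level was several-fold higher at P5 than at E12.5 (Cdh8, Cdh12 and Cdh20) and for Cdh6, whose level was not, with CG pairs in capitals. Their RefSeq starts lie within 36 bases of the start of the gene in the deposited annotation.
Cdh8 promoter, chr8:99416472-99416721 (- strand): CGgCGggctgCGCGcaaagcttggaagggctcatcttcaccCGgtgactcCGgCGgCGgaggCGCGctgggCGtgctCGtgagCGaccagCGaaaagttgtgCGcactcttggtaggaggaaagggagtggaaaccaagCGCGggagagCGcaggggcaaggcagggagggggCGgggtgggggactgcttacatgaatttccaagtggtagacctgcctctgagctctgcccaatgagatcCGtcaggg
Cdh12 promoter, chr15:21111202-21111451 (+ strand): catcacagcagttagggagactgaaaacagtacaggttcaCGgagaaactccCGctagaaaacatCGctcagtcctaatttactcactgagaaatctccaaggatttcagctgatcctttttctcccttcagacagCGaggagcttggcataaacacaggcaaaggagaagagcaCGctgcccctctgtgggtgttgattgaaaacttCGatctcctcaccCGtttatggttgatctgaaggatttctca
Cdh20 promoter, chr1:104768270-104768519 (+ strand): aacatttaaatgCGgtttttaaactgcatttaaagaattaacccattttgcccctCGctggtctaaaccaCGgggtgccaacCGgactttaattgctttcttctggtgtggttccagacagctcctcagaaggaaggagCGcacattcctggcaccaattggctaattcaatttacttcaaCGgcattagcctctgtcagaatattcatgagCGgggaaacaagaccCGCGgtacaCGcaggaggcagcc
Cdh6 promoter, chr15:13173676-13173925 (- strand): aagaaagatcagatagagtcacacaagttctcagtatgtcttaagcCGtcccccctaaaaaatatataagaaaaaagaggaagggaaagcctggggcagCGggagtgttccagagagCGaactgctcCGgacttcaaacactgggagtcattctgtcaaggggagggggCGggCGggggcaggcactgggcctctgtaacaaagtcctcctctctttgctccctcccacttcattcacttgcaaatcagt
The windows differed in CG content. Cdh8 held 20 CG pairs at 64.4% G and C, Cdh20 held 10, Cdh12 held 7 and Cdh6 held 6, where the median over all 32851 promoter windows in the table was 6. The letters TATAAA, searched on both strands, occurred in 12.4% of all windows and in none of these 4. The window of Cdh10, also higher at P5 but not shown because its RefSeq start lies inside the deposited gene, held 2. These letter counts describe the windows only.

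Libraries held 38774591 to 54695236 counts, and the members were covered by 46 reads (Cdh12 at E12.5) to 26597 reads (Cdh2 at E12.5) per library. Within a stage, values are given as counts scaled to a common library total (CPM) with library sizes scaled by the trimmed mean of M-values (TMM). Chd8 itself was 233 to 238.2 CPM in E12.5 Chd8+/+ and 164 to 169 CPM in E12.5 Chd8+/- libraries, and 143 to 148 against 94.1 to 97.6 CPM at P5, so each library matched its labelled genotype. Chd8 fell by 29.7% at E12.5 (adjusted p = 0.00562) and by 34.5% at P5 (adjusted p = 7.21e-05) in edgeR's quasi-likelihood test with Benjamini-Hochberg adjustment, and it was the only gene past an adjusted p of 0.05 in either comparison. At E12.5 omitting single libraries gave values from -0.52 to -0.499 on the log2 scale. The call was lost with the replicate number as a term (adjusted p = 0.3463) and with a term for the libraries with high Xist (0.0527). It was also lost without Chd8+/+ replicate 3 (0.141), Chd8+/- replicate 1 or Chd8+/- replicate 3. Adjusted p-values below come from this test unless another is named. The cortical excitatory neuron markers (10 of 10 detected) summed to 653 to 958 CPM at E12.5 and 1820 to 1931 CPM at P5, and no marker gene of the 12 cell-type lists was at 0 in every library of a group. A pair of libraries stood apart from their replicates. P5 Chd8+/- replicate 3 differed from its replicates by a chi-square per degree of freedom of 43.7 to 49.7, where all other replicate pairs lay between 7.09 and 18.1. E12.5 Chd8+/- replicate 2 had meningeal fibroblast markers summing to 1475 CPM (773 to 1105 in the other E12.5 libraries), thalamic neuron markers to 399.8 CPM (220.1 to 243 in the others) and cortical excitatory markers to 653 CPM (801 to 958 in the others). Results that rest on either library are given with and without it.

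To compare genes with each other, levels were expressed per exon length as reads per kilobase and library size (RPKM, TMM over 12 libraries). In E12.5 Chd8+/+ neocortex, Cdh2 (N-cadherin), the adhesion protein of the neuroepithelial junctions at the ventricular surface, had the highest level at 64.3 ± 2.63 RPKM (SD, n = 3). It was followed by Cdh11, a type II cadherin also known from mesenchyme, at 24.6 ± 0.908 RPKM and by Cdh4 (R-cadherin) at 12.3 ± 1.22 RPKM. Cdh6, a type II cadherin of cortical areas, was at 5.89 ± 0.798 RPKM. The other type II genes and Cdh13 were low, from 2.85 ± 0.344 RPKM for Cdh8 to 0.222 ± 0.0236 RPKM for Cdh12. The libraries of each gene were separate from those of the next gene in this order, except that Cdh13, Cdh20 and Cdh10, between 0.925 and 1.06 RPKM, overlapped with their neighbors.

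In P5 Chd8+/+ neocortex, Cdh2 was again first, but at 29.4 ± 0.915 RPKM (SD, n = 3), just above Cdh11 at 27.3 ± 1.08 RPKM and Cdh13 at 22.9 ± 0.876 RPKM. Cdh8 followed at 14.5 ± 0.787 RPKM and Cdh4 at 12.6 ± 0.379 RPKM. Cdh10, Cdh6 and Cdh20 were at 6.17, 5.35 and 5.27 RPKM, and Cdh12 and Cdh7 were lowest at 2.26 and 1.77 RPKM. Cdh6 and Cdh20 could not be ordered, since their libraries overlapped. In P5 Chd8+/- libraries, the neighbors Cdh2 and Cdh11, Cdh4 and Cdh8, and Cdh10 and Cdh20 overlapped as well. The range of levels was thus narrower at P5 than at E12.5, as seen in the plot of levels in each library.

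**Figure D1:**
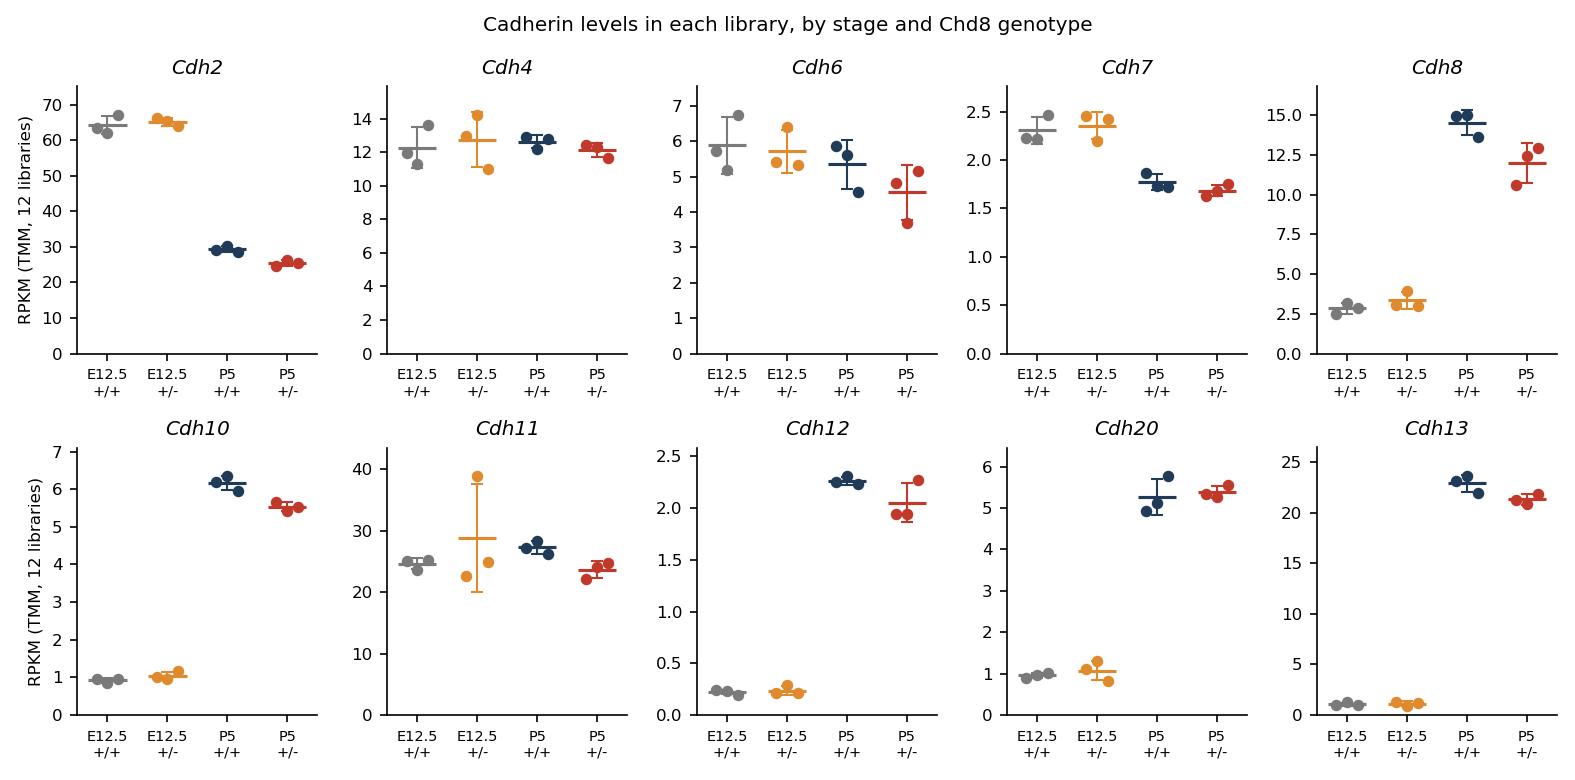
Levels of the 10 cadherins in RPKM (vertical axes, each starting at 0) in the 12 libraries, grouped by stage and Chd8 genotype. Points are libraries, wide bars are means and whiskers are SD (n = 3). Cdh13 is near 1 RPKM at E12.5 and between 20.8 and 23.6 RPKM at P5, Cdh2 is lower at P5, and Cdh11 has a single high E12.5 Chd8+/- library at 38.9 RPKM.

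Between E12.5 and P5, 7 of the 10 cadherins changed in Chd8+/+ neocortex at an adjusted p under 0.05, in edgeR over all 12 libraries, where 83.1% of the 19676 genes tested passed. At P5, 5 were higher, where 41.4% of all genes were, and 2 were lower, where 41.7% were. In Chd8+/- neocortex 8 passed (82.9% of all genes), 5 of them higher (41.3%) and 3 lower (41.6%). The median log2 fold change of the members was 1.25 in Chd8+/+ and 0.89 in Chd8+/- neocortex, and that of all genes was -0.02 and -0.0046. With an offset for the trend of each library with genomic span, all 10 passed in both genotypes, where 16274 of 19676 genes did in Chd8+/+ and 16257 in Chd8+/- libraries. Of the 10, 5 were higher and 5 lower at P5, and the median in Chd8+/+ libraries was 0.39.

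Cdh13 showed the largest difference. Its levels in the 3 E12.5 Chd8+/+ libraries were 0.956, 1.25 and 0.979 RPKM, and at P5 they were 23.2, 23.6 and 21.9 RPKM. This was a 21.6-fold rise, a log2 fold change of 4.43 ± 0.12 (SE, adjusted p = 5.51e-14). With the span offset the log2 fold change was 2.54. In Chd8+/- neocortex, Cdh13 rose by a log2 fold change of 4.25 ± 0.12 (adjusted p = 8.17e-14).

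Among the type II genes, Cdh12, Cdh10, Cdh20 and Cdh8 rose. Cdh12, the least abundant at E12.5, went from 0.243, 0.228 and 0.196 RPKM to 2.25, 2.31 and 2.23 RPKM, a log2 fold change of 3.34 ± 0.13 (adjusted p = 2.75e-12). Cdh10 went from 0.964, 0.844 and 0.967 RPKM to 6.19, 6.35 and 5.96 RPKM (log2 fold change 2.74 ± 0.08, adjusted p = 8.85e-14). These separate fully between the stages. Cdh20 rose by a log2 fold change of 2.46 ± 0.12 (adjusted p = 5.90e-11), from 0.898 to 1.005 RPKM to between 4.92 and 5.77 RPKM. Cdh8, a type II cadherin of cortical areas and their connections, rose by 2.36 ± 0.11 (adjusted p = 4.15e-11), from 2.50 to 3.19 RPKM to between 13.6 and 15.1 RPKM. The same 4 genes rose in Chd8+/- neocortex, with log2 fold changes of 3.12 (Cdh12), 2.40 (Cdh10), 2.33 (Cdh20) and 1.84 (Cdh8). With the span offset, the values in Chd8+/+ libraries were 2.04 (Cdh12), 2.02 (Cdh10), 1.66 (Cdh20) and 1.19 (Cdh8).

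The other type II genes behaved differently from these 4. Cdh7 fell by 0.38 on the log2 scale (SE 0.06, adjusted p = 7.65e-05) in Chd8+/+ and by 0.48 in Chd8+/- neocortex. Cdh6 had a log2 fold change of -0.14 ± 0.13 (adjusted p = 0.346) in Chd8+/+ and of -0.33 ± 0.14 (adjusted p = 0.0365) in Chd8+/- libraries, and in the latter it missed the threshold with DESeq2 (adjusted p = 0.0568), median-ratio size factors (0.0589) and upper-quartile scaling (0.0753) and without E12.5 Chd8+/- replicate 2 (adjusted p = 0.125) or P5 Chd8+/- replicate 2 (adjusted p = 0.172). The log2 fold changes of Cdh11 were 0.15 ± 0.14 (adjusted p = 0.334) and -0.28 ± 0.14 (adjusted p = 0.0767) in the 2 genotypes. In Chd8+/- libraries Cdh11 passed without E12.5 Chd8+/- replicate 1 (log2 fold change -0.41, adjusted p = 0.0049). Without E12.5 Chd8+/- replicate 2, its value in Chd8+/- libraries was -0.01, and in Chd8+/+ libraries it passed with an adjusted p of 0.0164, since all 12 libraries share 1 estimate of the spread. With the span offset, the values in Chd8+/+ and Chd8+/- libraries were -0.96 and -0.96 for Cdh7, -0.63 and -0.72 for Cdh6, and -0.41 and -0.73 for Cdh11. The type II genes were thus not alike, since 4 were higher at P5 with and without this offset and these 3 were not.

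The type I genes, Cdh2 on chromosome 18 and Cdh4 on chromosome 2, differed from each other. Cdh2 fell from 63.5, 62.2 and 67.2 RPKM in the E12.5 Chd8+/+ libraries to 29.3, 30.4 and 28.6 RPKM at P5, a log2 fold change of -1.13 ± 0.05 (adjusted p = 1.16e-11), and it fell by 1.35 in Chd8+/- neocortex (adjusted p = 1.55e-12). Cdh4 was at 11.9, 11.3 and 13.6 RPKM at E12.5 and at 12.9, 12.2 and 12.8 RPKM at P5 in Chd8+/+ libraries, with overlapping stages and a log2 fold change of 0.04 ± 0.08 (adjusted p = 0.661). The span offset moved both values down, Cdh2 to -1.92 and Cdh4 to -1.23 (adjusted p = 1.66e-09). The whole tissue was sequenced, so fewer cells of a type and less RNA per cell cannot be told apart in any of these values. Between the stages, radial glia markers summed to 2787 to 2995 CPM at E12.5 and to 1077 to 1239 CPM at P5, astrocyte markers to 390.5 to 450.0 and to 1138 to 1320 CPM, and erythrocyte markers to 623 to 773 and to 106 to 128 CPM. Striatal neuron markers went from 58.5 to 65.0 CPM to between 253 and 375 CPM, and oligodendrocyte precursor markers from 74.4 to 112 CPM to between 453 and 501 CPM. Choroid plexus markers went from 96.7 to 177.6 CPM to between 327 and 573 CPM, and microglia markers from 42.7 to 49.9 CPM to between 131.7 and 175.9 CPM. Their part in the cadherin levels was not tested.

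The makeup of the summed cadherin level differed between the stages in every library, and shares within a library do not depend on its scaling. Cdh2 made up 55.5 to 56.1% of the summed RPKM in E12.5 Chd8+/+ libraries and 22.8 to 23.2% at P5. The 7 type II genes together made up 32.5 to 33.0% at E12.5 and 48.7 to 49.4% at P5. Cdh13 went from 0.807 to 1.13% up to between 17.8 and 18.1%. The ratio of summed type II to summed type I level was thus 0.493 ± 0.00577 (SD, n = 3) at E12.5 and 1.49 ± 0.0326 at P5. In Chd8+/- libraries the ratios were 0.452, 0.678 and 0.506 at E12.5 and 1.40, 1.42 and 1.56 at P5, the high E12.5 value being that of replicate 2, in which Cdh11 was high. The summed level of all 10 genes changed less than its makeup, from 111 to 121 RPKM in E12.5 Chd8+/+ libraries to between 124 and 131 RPKM at P5. In Chd8+/- libraries the sums were 116, 134.5 (replicate 2) and 114 RPKM at E12.5 and 111, 114 and 117 RPKM at P5. These sums and shares hold no span offset. That offset lowered the members' median log2 fold change between the stages in Chd8+/+ libraries from 1.25 to 0.39. The sums and shares with it are not known.

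**Figure D2:**
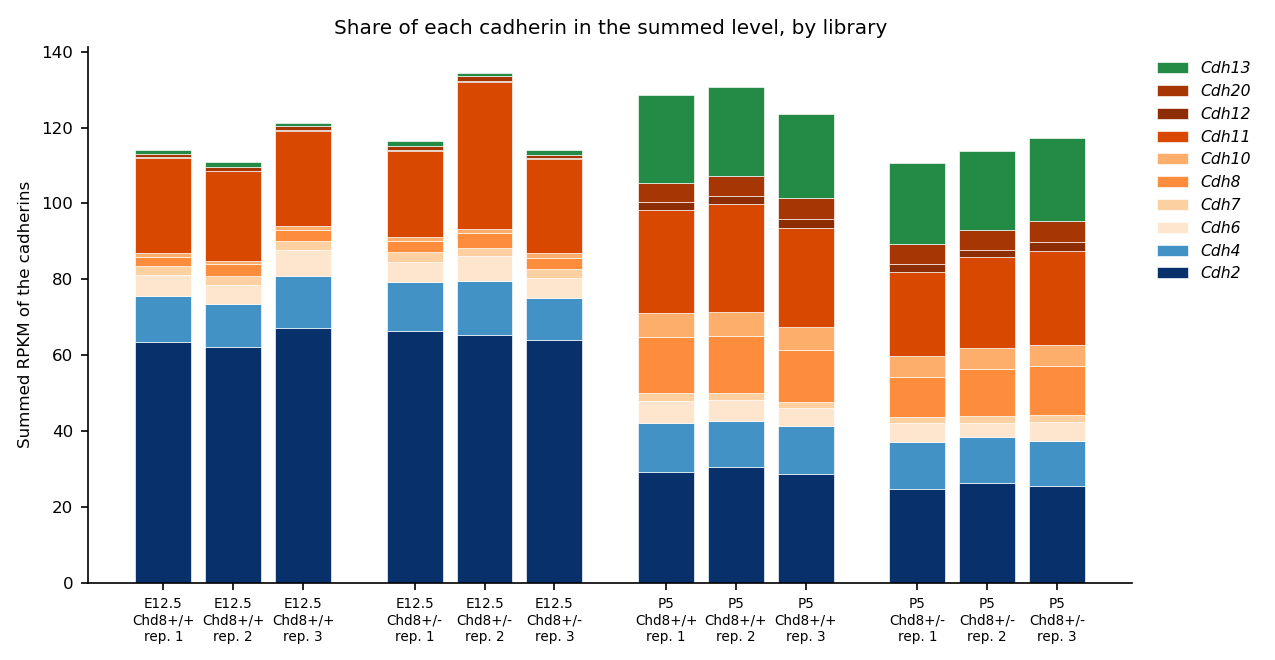
Summed RPKM of the 10 cadherins in each of the 12 libraries (vertical axis), stacked by gene, with type I genes in blue, type II genes in orange and brown, and Cdh13 in green. Cdh2 takes 48.6 to 56.9% of the bar at E12.5 and 21.9 to 23.2% at P5, where Cdh8, Cdh10 and Cdh13 form visible layers.

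At P5, 9 of the 10 cadherins had a log2 fold change below 0 in Chd8+/- against Chd8+/+ neocortex, with a median of -0.13, where 49.6% of the 18666 genes tested were below 0 and their median was 0.00. None of the 10 passed an adjusted p of 0.05 in edgeR, where 0.00536% of all genes passed. At an unadjusted p under 0.05, 4 of the 10 were lower (Cdh2, Cdh8, Cdh10 and Cdh11) and none higher, where 9.77% of all genes were lower and 8% higher. With DESeq2, 3 of the 10 (Cdh2, Cdh8 and Cdh11) were lower at an adjusted p under 0.05, where 3.55% of the genes it tested were lower. The Chd8+/- and Chd8+/+ libraries did not overlap for 4 of the 10, all lower in Chd8+/-, where 12.2% of all genes were lower and 11% higher without overlap.

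Cdh2 was at 232, 240 and 227 CPM in the P5 Chd8+/+ libraries and at 198, 209 and 205 CPM in the Chd8+/- libraries. Every Chd8+/- library lay below every Chd8+/+ library. The difference was -12.2%, a log2 fold change of -0.19 ± 0.04 (SE) with an unadjusted p of 0.000603 and an adjusted p of 0.0973 in edgeR, and with an adjusted p of 0.00137 in DESeq2. In edgeR without the filter on low counts the adjusted p was 0.00588, and without P5 Chd8+/- replicate 2 it was 0.0416. Without each of the other libraries in turn it was 0.103 to 0.3902, and with the offsets for exon length and genomic span it was 0.154 and 0.203. Cdh4, the other type I gene, was at 91.7, 86.6 and 91.4 CPM in Chd8+/+ and at 89.8, 88.4 and 84.0 CPM in Chd8+/- libraries. The groups overlapped, and the log2 fold change was -0.04 ± 0.04 (adjusted p = 0.604), which was -0.0049 without P5 Chd8+/- replicate 3.

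Of the type II genes, Cdh8 had the smallest adjusted p in DESeq2. Its libraries were at 114, 114 and 104 CPM in Chd8+/+ and at 81.6, 95.4 and 99.4 CPM in Chd8+/-, with no overlap and with replicate 1 lowest. The log2 fold change was -0.26 ± 0.07, a difference of -16.6%, with an unadjusted p of 0.00265 and an adjusted p of 0.117 in edgeR, against 0.00584 in DESeq2 and 0.000503 in edgeR without the low-count filter. The log2 fold change was -0.18 without P5 Chd8+/- replicate 1 and -0.31 without P5 Chd8+/- replicate 3.

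Cdh11 was at 112, 117 and 109 CPM in Chd8+/+ and at 92.7, 100.6 and 103 CPM in Chd8+/- libraries, again without overlap. Its log2 fold change was -0.19 ± 0.05, with an unadjusted p of 0.00206 and an adjusted p of 0.116 in edgeR, 0.0142 in DESeq2 and 0.00468 in edgeR without the filter. Cdh10, a type II cadherin of forebrain neurons, was at 61.0, 62.4 and 58.9 CPM in Chd8+/+ and at 56.6, 54.0 and 55.0 CPM in Chd8+/- libraries. These did not overlap either, and its log2 fold change of -0.14 ± 0.04 had an unadjusted p of 0.0050 and an adjusted p of 0.133 in edgeR and of 0.0976 in DESeq2. The differences of Cdh2, Cdh8, Cdh10 and Cdh11 thus ran from -9.16% (Cdh10) to -16.6% (Cdh8).

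The remaining type II genes and Cdh13 overlapped between the genotypes. Cdh6 was at 15.1, 14.4 and 11.8 CPM in Chd8+/+ and at 12.7, 9.60 and 13.4 CPM in Chd8+/-, a log2 fold change of -0.22 ± 0.13 (adjusted p = 0.404) that was -0.08 without P5 Chd8+/- replicate 2. Cdh12 had a log2 fold change of -0.12 ± 0.08 (adjusted p = 0.434), with 2 Chd8+/- libraries at 10.9 CPM and replicate 3, the library that stood apart, at 12.7 CPM, within the range of the Chd8+/+ libraries (12.4 to 12.7 CPM). Without that replicate the value was -0.19. Cdh7 (log2 fold change -0.06 ± 0.06, adjusted p = 0.641) and Cdh20 (0.05 ± 0.07, adjusted p = 0.743) were close to 0, and Cdh20 was the only member with a value above 0. With each library left out, Cdh7 ran from -0.078 to -0.020 and Cdh20 from 0.0013 to 0.126. Cdh13 was at 253, 257 and 240 CPM in Chd8+/+ and at 236, 229.8 and 242 CPM in Chd8+/- libraries, and its log2 fold change was -0.09 ± 0.04 (adjusted p = 0.298).

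Without P5 Chd8+/- replicate 3, 9 of the 10 members were still below 0, where 9109 of 18932 genes were, the median was -0.15 and 6 members had an unadjusted p under 0.05, where 2963 genes did. Summed over genes, type I cadherins were at 41.4 to 42.6 RPKM in P5 Chd8+/+ and at 37.2 to 38.5 RPKM in P5 Chd8+/- libraries, and type II cadherins at 60.2 to 64.6 and at 52.1 to 58.0 RPKM. The shares of Cdh2 (21.9 to 23.0%), type II genes (47.1 to 49.5%) and Cdh13 (18.3 to 19.3%) in P5 Chd8+/- libraries lay beside those of 22.8 to 23.2%, 48.7 to 49.4% and 17.8 to 18.1% in P5 Chd8+/+ libraries.

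**Figure D3:**
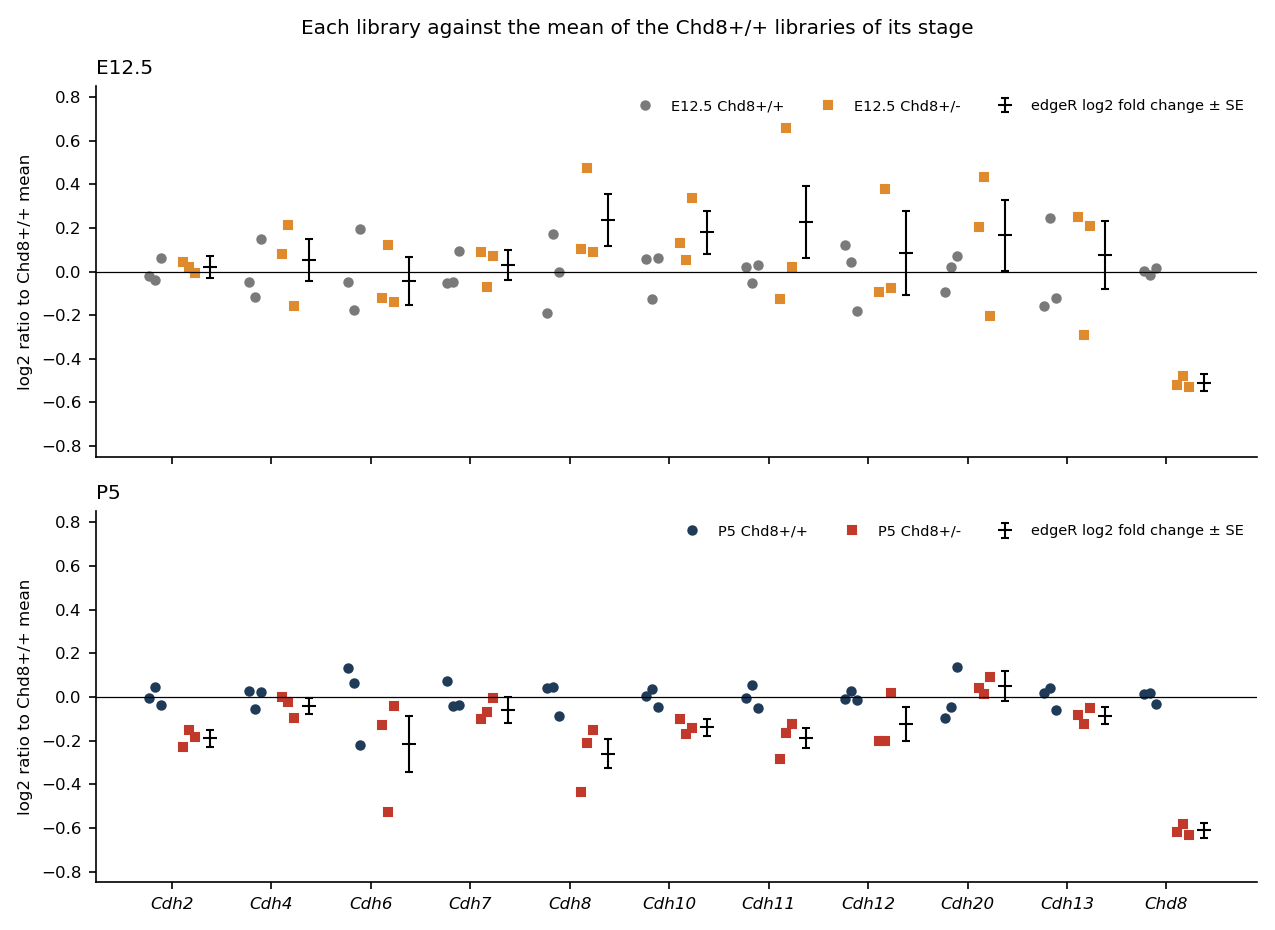
Log2 ratio of each library's CPM to the mean of the Chd8+/+ libraries of its stage (vertical axes), for the 10 cadherins and Chd8, with circles for Chd8+/+, squares for Chd8+/- and black marks for the edgeR log2 fold change ± SE. At P5, the Chd8+/- squares of Cdh2, Cdh8, Cdh10 and Cdh11 lie below all circles, and those of Chd8 lie near its log2 fold change of -0.61. At E12.5, Chd8+/- replicate 2 (middle square) is highest for Cdh11, and Chd8 is the only plotted gene whose groups are separate.

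Several other measures moved with the P5 genotypes. Each library's deviation from the stage mean was correlated across 12828 genes with genomic span, with a Spearman's rho of 0.316, 0.157 and 0.274 in the Chd8+/+ libraries and of -0.411, -0.0248 and -0.141 in the Chd8+/- libraries, and all members are among the longest genes. With an offset that removed this trend, the log2 fold changes were -0.11 for Cdh2, -0.17 for Cdh8, -0.12 for Cdh11 and -0.06 for Cdh10, the values of Cdh4 (0.06), Cdh7 (0.01) and Cdh13 (0.04) turned above 0, and the median of the members was -0.05. With an offset for exon length the median was -0.08. The values of Cdh2, Cdh8, Cdh10 and Cdh11 were below 0 under each setting in the plot of settings. In edgeR's quasi-likelihood test, the unadjusted p of Cdh10 was 0.125 with the offset for exon length and 0.1700 with that for genomic span, and that of Cdh11 was 0.169 in the fit of all 12 libraries.

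**Figure D4:**
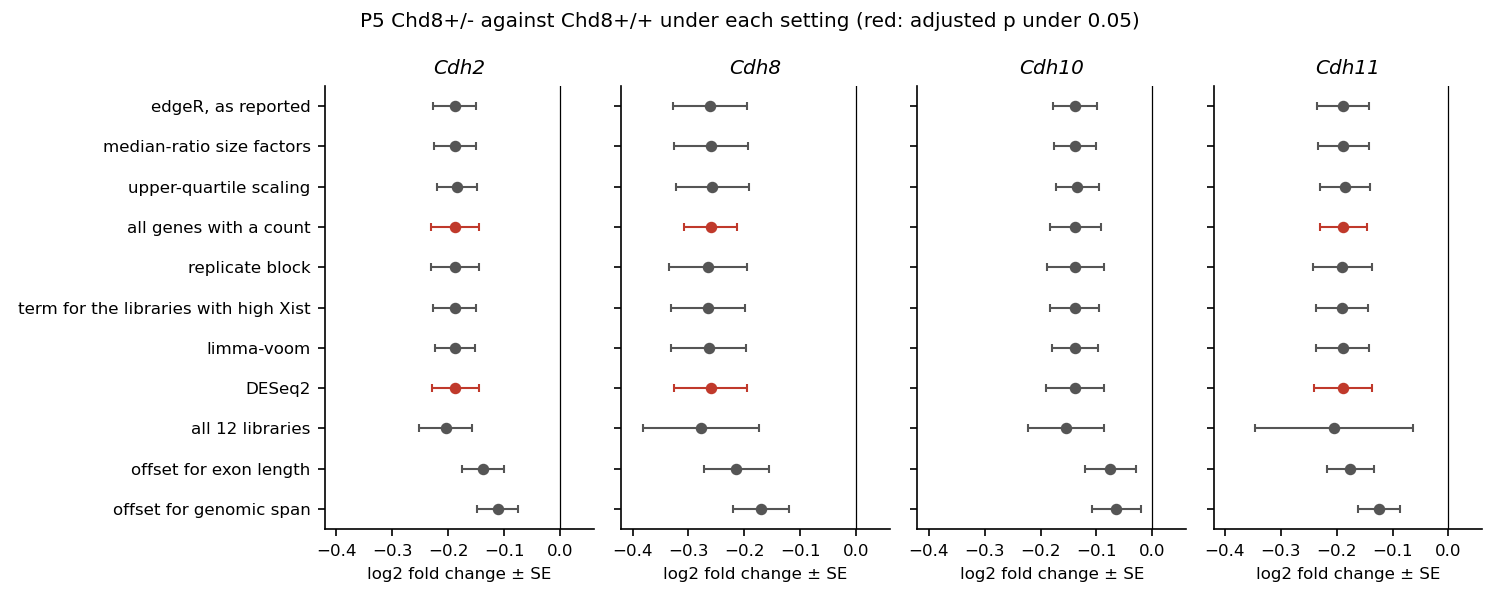
Log2 fold change ± SE of Cdh2, Cdh8, Cdh10 and Cdh11 in P5 Chd8+/- against Chd8+/+ libraries (horizontal axes) under 11 settings (rows), with settings at an adjusted p under 0.05 in red. Cdh2, Cdh8 and Cdh11 are red with DESeq2 and in edgeR with all genes that have a count. The points lie closer to 0 with the offset for genomic span, at -0.11, -0.17 and -0.12, and Cdh10 lies at -0.06.

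Markers of cell types that a cortical dissection could hold also moved with the P5 genotypes. Markers of striatal medium spiny neurons summed to 347 to 375 CPM in Chd8+/+ and 253 to 314 CPM in Chd8+/- libraries, with 10 of 10 lower at an unadjusted p under 0.05, where 9.77% of all genes were. Choroid plexus markers summed to 443 to 573 and 327 to 385 CPM (10 of 10 lower, where 49.6% of all genes were below 0), and endothelial markers to 307.5 to 345 and 276.6 to 306.7 CPM (8 of 10 lower). GABAergic interneuron markers summed to 716 to 736 and 616 to 698 CPM (9 of 10 lower). These 4 lists had their Chd8+/- libraries below all Chd8+/+ libraries. Meningeal fibroblast markers summed to 585 to 661 CPM in Chd8+/+ and 579 to 777 CPM in Chd8+/- libraries (9 of 10 higher) with overlapping genotypes, and cortical excitatory markers to 1820 to 1931 and 1840 to 1894 CPM (4 of 10 lower). No gene of these lists passed an adjusted p of 0.05 in edgeR. In DESeq2, 6 striatal, 4 choroid plexus, 3 endothelial, 2 cortical excitatory, 1 GABAergic interneuron and 0 meningeal markers did, where 651 of 12467 genes did. The part of these cell types in the cadherin values was not tested.

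**Figure D5:**
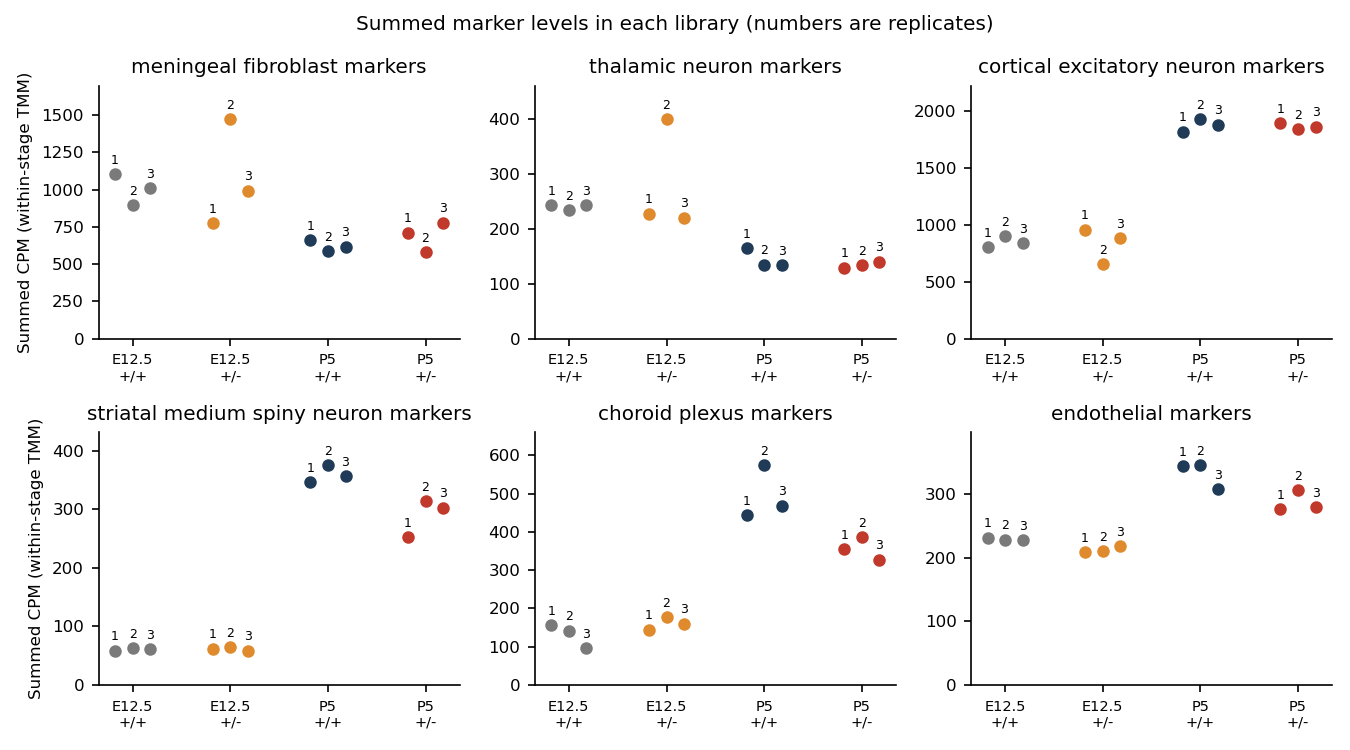
Summed CPM (vertical axes, from 0) of 6 marker lists in each library, by stage and genotype, with replicate numbers above the points. E12.5 Chd8+/- replicate 2 is highest for meningeal (1475 CPM) and thalamic markers (399.8 CPM) and lowest at its stage for cortical excitatory markers. The P5 Chd8+/- libraries lie below all P5 Chd8+/+ libraries for striatal, choroid plexus and endothelial markers.

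At E12.5, no difference of a cadherin between the genotypes passed the adjusted threshold. None of the 10 had an adjusted p under 0.05 in edgeR, where 0.00553% of all genes did, or in DESeq2 (0.0373%, Cdh12 not tested). In edgeR none had an unadjusted p under 0.05, where 5.15% of the 18081 genes tested did, whereas Cdh8 did in DESeq2 (unadjusted p = 0.0481), Cdh8 and Cdh11 did in edgeR without the low-count filter (unadjusted p = 0.01996 and 0.0443), and Cdh10 did in the fit of all 12 libraries (unadjusted p = 0.0358). With single libraries left out, 0 to 2 members did in edgeR, where between 690 of 18271 and 1190 of 18421 genes did. The genotypes overlapped for all 10, where 5.9% of all genes were lower and 5.45% higher without overlap. The log2 fold change was above 0 for 9 of the 10, where 49.8% of all genes were below 0, and the median of the members was 0.08. Without E12.5 Chd8+/- replicate 2, it was above 0 for 6 of the 10 and the median was 0.01.

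Cdh2 was at 518, 511 and 549 CPM in E12.5 Chd8+/+ and at 542, 534 and 524 CPM in E12.5 Chd8+/- libraries. Its log2 fold change was 0.02 ± 0.05 (adjusted p = 0.993). Cdh8 (19.6, 25.2 and 22.3 CPM against 24.0, 31.1 and 23.8 CPM) had the smallest p of the members, with a log2 fold change of 0.24 ± 0.12 (unadjusted p = 0.0813, adjusted p = 0.942 in edgeR). Leaving out Chd8+/- replicate 2 made this value 0.10. It became 0.15 when Chd8+/+ replicate 1 was dropped and 0.33 when Chd8+/+ replicate 2 was. Cdh11 was at 107, 101 and 107 CPM in Chd8+/+ and at 96.5, 166 and 107 CPM in Chd8+/- libraries. Its log2 fold change of 0.23 ± 0.17 (adjusted p = 0.962) turned to -0.05 without Chd8+/- replicate 2, the library with the highest meningeal and thalamic marker sums.

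That library was also the highest of the 6 for Cdh4 (105 CPM), Cdh8 (31.1 CPM), Cdh12 (1.65 CPM) and Cdh20 (5.25 CPM) and the lowest for Cdh13 (9.82 CPM). Without it, the log2 fold changes of Cdh4 and Cdh12 turned from 0.05 and 0.09 to -0.03 and -0.08, that of Cdh20 went from 0.17 to 0.01 (0.33 without Chd8+/- replicate 3), and that of Cdh13 went from 0.08 to 0.23. Endothelial markers summed to 227.5 to 231.6 CPM in E12.5 Chd8+/+ and 208.6 to 218.6 CPM in E12.5 Chd8+/- libraries. Astrocyte markers summed to 390.5 to 415.3 and 426.4 to 450.0 CPM in the same groups. The genotypes overlapped at E12.5 for the other cell-type lists. The part of these cells and of the meningeal and thalamic cells in the cadherin values was not tested. Cdh10 (9.79, 8.65 and 9.83 CPM against 10.3, 9.77 and 11.9 CPM) had a log2 fold change of 0.18 ± 0.10 (adjusted p = 0.944), which was 0.24 without Chd8+/- replicate 2 and 0.09 without Chd8+/- replicate 3. Cdh6 and Cdh7 had log2 fold changes of -0.04 and 0.03.

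Whether the genotype effect differed between E12.5 and P5 was tested with the interaction term of the 12-library fit. No member passed an adjusted p of 0.05 in edgeR, and 0 of the 19676 genes (0%) did. In DESeq2 none of the 6 members with an adjusted p passed, where 0.0929% of genes did. At an unadjusted p under 0.05, 4 of the 10 members had a lower genotype effect at P5 than at E12.5, where 6.87% of all genes did. These were Cdh8 (-0.51 ± 0.15, adjusted p = 0.362), Cdh2 (-0.22 ± 0.07, adjusted p = 0.362), Cdh10 (-0.33 ± 0.10, adjusted p = 0.369) and Cdh11 (-0.43 ± 0.20, adjusted p = 0.493), on the log2 scale. With the span offset only Cdh8 (-0.37, unadjusted p = 0.0119 in edgeR) of these kept an unadjusted p under 0.05, and the values were -0.11 for Cdh2, -0.22 for Cdh10 and -0.33 for Cdh11. Cdh11 also missed this level with DESeq2 (unadjusted p = 0.0825) and with upper-quartile scaling in edgeR (unadjusted p = 0.0620). The interaction was below 0 for all 10 members, with a median of -0.21, where 54.2% of all genes were below 0. Without E12.5 Chd8+/- replicate 2, the value of Cdh11 was -0.15, that of Cdh8 was -0.37 and that of Cdh20 was 0.04.

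Other cadherins were counted as a list. Of 13, 10 were tested at E12.5 and 11 at P5, and none passed an adjusted p of 0.05 for genotype in edgeR. At an unadjusted p under 0.05, 4 differed at E12.5 (3 higher), where 5.15% of all genes did, and 5 at P5 (4 lower), where 17.8% did. At E12.5 the smallest p-values were those of Cdh15 (M-cadherin, log2 fold change 0.97 ± 0.27), Cdh5 (VE-cadherin of endothelium, -0.16 ± 0.05) and Cdh9 (a type II cadherin, 0.59 ± 0.21), each with an adjusted p of 0.942, Cdh15 and Cdh9 being under 1 CPM in every E12.5 group. At P5 they were those of Cdh18, a type II cadherin of the brain (-0.32 ± 0.08, adjusted p = 0.121 in edgeR and 0.0376 in DESeq2), Cdh5 (-0.22 ± 0.06, adjusted p = 0.131 and 0.0409) and Cdh1 (E-cadherin, 0.36 ± 0.13, adjusted p = 0.207 and 0.115). Both Cdh5 and the endothelial marker sum were lower in P5 Chd8+/- neocortex, and a link between them was not tested. Between the stages in Chd8+/+ libraries, 7 of the 12 tested changed at an adjusted p under 0.05, where 83.1% of all genes did, with Cdh9, Cdh15, Cdh18, Cdh1 and Cdh26 higher at P5 and Cdh5 and Cdh24 lower. Cdh9 had a log2 fold change of 5.46 ± 0.12 (adjusted p = 6.98e-15) and Cdh18 of 3.66 ± 0.15 (adjusted p = 9.50e-12).

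The cytoplasmic partners of the cadherins were described in the same way. Of 18 catenins, linkers and turnover genes, 17 were tested at E12.5, where none had an unadjusted p under 0.05 for genotype. The smallest p-values there were those of Adam10, the protease that cuts N-cadherin (log2 fold change 0.08), Cbll1, an E-cadherin ubiquitin ligase (0.11), and Ctnna1, α-catenin (0.05), with adjusted p between 0.946 and 0.967 in edgeR. At P5, 5 of 18 had an unadjusted p under 0.05, where 17.8% of all genes did, and 4 of them were lower, where 9.77% of all genes were. None passed the adjusted threshold in edgeR. Vcl, encoding the actin linker vinculin, had a log2 fold change of -0.35 ± 0.07 (adjusted p = 0.1002 in edgeR and 0.00480 in DESeq2), Ctnnb1, encoding β-catenin, of -0.16 ± 0.05 (adjusted p = 0.135 and 0.0163), and Ctnnbip1, an inhibitor of β-catenin, of 0.10 ± 0.03 (adjusted p = 0.178 and 0.213). The median of the list was -0.03 at P5, and it was 0.02 with the span offset.

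Between the stages, 17 of the 18 partners changed in Chd8+/+ neocortex at an adjusted p under 0.05, where 83.1% of all genes did. At P5, 10 were lower, namely Ctnna1, Arvcf, Ctnnd1, Ctnnal1, Ctnnb1, Afdn, Iqgap1, Adam10, Cbll1 and Vcl, and 7 were higher, namely Ctnnd2, Jup, Pkp4, Ctnnbip1, Furin, Ctnna2 and Ctnna3. Vcl missed the threshold with DESeq2 (adjusted p = 0.0556). The α-catenins went in opposite directions, with Ctnna1 at 70.0 ± 2.35 RPKM (SD, n = 3) at E12.5 and 15.9 ± 0.867 RPKM at P5 (log2 fold change -2.135 ± 0.05, adjusted p = 6.88e-15), and the neuronal form Ctnna2 at 21.3 ± 1.98 and 36.1 ± 0.895 RPKM (0.76 ± 0.07, adjusted p = 1.34e-07). The p120-catenin family showed the same kind of contrast, Ctnnd1 with a log2 fold change of -1.08 ± 0.05 and the neuronal δ-catenin gene Ctnnd2 with 1.69 ± 0.05. Ctnnb1 fell by 0.84 ± 0.05, the direction of Cdh2, which had a log2 fold change of -1.13. These values hold no span offset. That offset moved the median log2 fold change of the partners in Chd8+/+ libraries from -0.39 to -0.72. Whether the contrasts within the α-catenins and the p120-catenin family remain with it is not given here.

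The gene whose level was most like that of a member over the 12 libraries, by Pearson's r of log2 CPM among 19666 other genes, was found for the 3 most abundant members at P5. It was Map4k4 for Cdh2 (r = 0.999), Ppp2r2c for Cdh13 (r = 0.9997) and Fbln2, encoding an extracellular matrix protein, for Cdh11 (r = 0.923). For Cdh2 and Cdh13 these values rest mainly on the difference between the 2 stages, which all 12 libraries share, and for Cdh11 on a profile with 1 high library.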

How the data were processed

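Reads were made into counts by the authors. Per the labels and the study's methods, adaptors were trimmed with Trim Galore 0.4.1, paired-end reads were aligned to GRCm38 with TopHat2 2.1.0, and featureCounts 1.5.0 counted them over merged exons of Ensembl genes. The deposited values are raw counts per gene and run, with no normalization. Libraries were made with a strand-marking kit, but the P5 command recorded in the table counted both strands, and that of the E12.5 table is not given in the sources used here. The 2 runs of each library were summed, which gave 38774591 to 54695236 counts per library.

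Genotypes were compared within each stage with edgeR 4.0.16 in R 4.3.3 (TMM, default filterByExpr, quasi-likelihood test, Benjamini-Hochberg adjustment over all genes tested, threshold 0.05). Stage and interaction were fitted over all 12 libraries with 1 mean per group. The standard error is the log2 fold change divided by the square root of the F statistic. RPKM used the deposited exon lengths. The cadherins, the lists of markers, other cadherins and partners, and the tests were chosen with earlier results of these data known. The genes named are the 10 cadherins, Chd8, the listed genes with an adjusted p under 0.05, the 3 of each list with the smallest genotype p at each stage and the gene most like each of the 3 most abundant cadherins. Alternatives were DESeq2 1.42.0, limma-voom from limma 3.58.1, other scalings and filters, loess offsets (span 0.5) for exon length and, added after the data were seen, for genomic span, a term for libraries with high Xist, the replicate block, all 12 libraries in 1 fit and each library left out. Scripts were tested on simulated data. With 3 libraries per group, small differences may be missed. Promoter letters came from the RefSeq table. Tables and figures were made with Python 3.11, pandas and matplotlib.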

Additional observations from a re-analysis of the deposited data

How the results depend on the processing

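For genotype at P5, members past an adjusted p of 0.05 numbered 0 in edgeR, 3 with DESeq2 and 3 without the low-count filter, and 0 to 1 with each library left out, the 1 being Cdh2 without P5 Chd8+/- replicate 2. Over all genes the count was 1 in edgeR, 651 with DESeq2, 995 without the filter and 327 without P5 Chd8+/- replicate 2, and the causes were not tested. The median of the members (-0.13) was -0.084 with the offset for exon length and -0.045 with that for genomic span, and -0.15 to -0.084 with each library left out. Log2 fold changes that turned sign were Cdh4 and Cdh7 with the offset for exon length (0.0041 and 0.0035), and Cdh4, Cdh7 and Cdh13 with that for genomic span (0.058, 0.0077 and 0.036).

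At E12.5, Cdh2 turned to -0.0013 with the span offset, and with each library left out Cdh4 ran from -0.034 to 0.15, Cdh6 from -0.13 to 0.066, Cdh11 from -0.048 to 0.37, Cdh12 from -0.082 to 0.17 and Cdh13 from -0.015 to 0.23. For the interaction, the median (-0.21) was -0.083 and Cdh4 0.044 with the span offset, and with each library left out the median ran from -0.26 to -0.15 and Cdh20 from -0.27 to 0.036.

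Between the stages in Chd8+/+ libraries, the median (1.25) was 1.29 with median-ratio size factors, 1.08 with the exon-length offset, 0.39 with the span offset and 1.19 to 1.28 with each library left out. Cdh4 and Cdh11 turned to -0.12 and -0.024 with the exon-length offset and to -1.23 and -0.41 with the span offset, and Cdh4 ran from -0.0235 to 0.12 with each library left out. In Chd8+/- libraries the median (0.89) was 0.79 and 0.049 with the 2 offsets and 0.82 to 0.9965 with each library left out, and Cdh4 ran from -0.15 to 0.016. The exon-length offset moved the median of all genes to -0.12 between the stages in Chd8+/+ libraries. With raw library totals, the summed type I level in P5 Chd8+/+ libraries was 41.15 in place of 42.04 RPKM.

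A replicate block (the replicate number as a term) left 0 members called for genotype at either stage. Over all genes, 0 of 18081 were called at E12.5 and 4 of 18666 at P5. With this block, Cdh8 had an unadjusted p of 0.0163 at E12.5 in edgeR, and Cdh2 was at -0.19 (adjusted p = 0.1703) at P5. Chd8 was no longer called at E12.5 (adjusted p = 0.3463). The deviations of same-numbered libraries correlated by -0.493, -0.172 and -0.3599 at E12.5 and by 0.478, 0.162 and 0.0679 at P5. Those of libraries with different numbers ran from -0.211 to 0.465 at E12.5 and from -0.382 to 0.329 at P5. Not every library correlated best with its own number. With 3 libraries per group, these values cannot tell whether the numbers pair the libraries. Cdh12 at E12.5, with 46 reads in its lowest library, is limited by depth.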
